A study of Mus musculus with 6 samples.

Results

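Cytosolic ribosomal protein mRNAs were examined in alveolar type II cells, the surfactant-producing cells of the lung alveolus, from Stat3Δ/Δ and control mice. They were taken as the probe sets that name a single gene whose symbol begins with Rpl or Rps and a digit, or is Rplp0, Rplp1, Rplp2 or Rpsa, without the Rps6k kinases and pseudogenes. This rule uses names alone and found 106 of 45037 probe sets, for 50 of 18193 genes. The symbols of 26 genes begin with Rpl (large subunit) and those of 24 with Rps (small subunit), and 24 genes have several probe sets, with up to 6 for a gene. Rps19bp1 is taken in by its symbol but encodes a protein that binds RPS19 and is not itself a ribosomal protein. Rpl5, Rplp1, Rps27a, Rpl3, Rpl36a and Rpl10 have no probe set that names them alone and are not reported here.

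Cells of 3 mice, each 8 weeks old, made up a pool, and RNA of 3 pools per group was hybridized to MOE430 arrays, with 1 array for each pool. The Stat3Δ/Δ mice carried SP-C-rtTA, (tetO)7CMV-Cre and Stat3flx/flx, so that Cre is made in respiratory epithelium under the SP-C promoter when doxycycline is given and removes an exon of Stat3 there. Doxycycline was given in the dams' food from conception until the fourth week after birth. Controls were littermates matched for sex and age. Their titles call them wild-type, and their source label gives both SP-C-rtTA and (tetO)7CMV-Cre but no floxed Stat3. Their description field names the transgenic line that also carries Stat3flx/flx. The methods describe non-deleted mice with SP-C-rtTA or tetO7CMV-Cre and Stat3flx/flx. Whether every control had Cre or the floxed alleles is not settled by these sources. The isolates were made with collagenase and differential plating. The methods describe them as mostly type II cells with residual macrophages, and report no group difference in purity by stain. The labelled cell type was checked first, and 7 of 8 type II cell markers were measured, with a median log2 signal of 16.53 against 9.71 for all genes. Airway secretory cell markers were as bright, with a median of 16.34 over 5 genes, so the signals do not set type II cells apart from those cells.

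The ribosome that translates nuclear-encoded mRNAs in the cytosol is built from a small subunit, which reads the codons, and a large subunit, which joins the amino acids. Each holds one copy of most of its proteins, so the mRNAs of these proteins are made in matched and very large amounts in nearly every cell type. Many of these mRNAs begin with a run of pyrimidines, the 5′ terminal oligopyrimidine (TOP) tract, through which mTOR signalling controls how strongly they are translated.

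No ribosomal protein mRNA met the criteria of the study as applied here to the deposited MAS5 signals. The criteria ask for a fold of 1.5 or more together with an unadjusted p up to 0.05 and an FDR up to 10%. Without the FDR, they ask for a change seen in more than 1 probe set. Of the 24 genes with several probe sets, 0 had 2 or more past the p and the fold in 1 direction. The 26 genes with 1 probe set could not meet this criterion, and no share over all genes is given beside it. The study reported many altered genes from RMA values. On the signals used here only 1 of 45037 probe sets was called, so a count of 0 members says little about them. Of the 106 probe sets 0 were called by limma, against 0.00222% of all probe sets, and 0 by the methods' t-test after Benjamini-Hochberg adjustment. With p adjusted over genes, 0 of 50 were called, against 0.011% of all genes. At an unadjusted p of at most 0.05 there were 4 (3.77%), against 8.45% of all probe sets; 3 were higher in Stat3Δ/Δ cells, against 4.18%, and 1 lower, against 4.27%. By gene, each represented by its brightest probe set, 1 of 50 (2%) reached this p, against 7.81% of all genes; it was higher in Stat3Δ/Δ cells, as were 2.19% of all genes, while 0 were lower, against 5.62%. The median log2 fold change of the 50 genes was 0.03, with 28 above 0 and 22 below, and 37 lay within 0.25 of 0. Over all genes the median was -0.085, and over the top 10% of genes by signal it was -0.038. The sign of the ribosomal median depended on the scaling: it was 0.03 with quantile normalization, -0.087 with the arrays as deposited and -0.23 with arrays centred on their medians, with 28, 15 and 7 of 50 genes above 0. The same scalings gave -0.085, -0.039 and -0.18 for all genes. Values below are log2(signal + 69.9) after quantile normalization, where 69.9 is the 20th percentile of all signals, and fold changes are Stat3Δ/Δ minus control on that scale, which understates the change of dim probe sets.

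**Figure D1:**
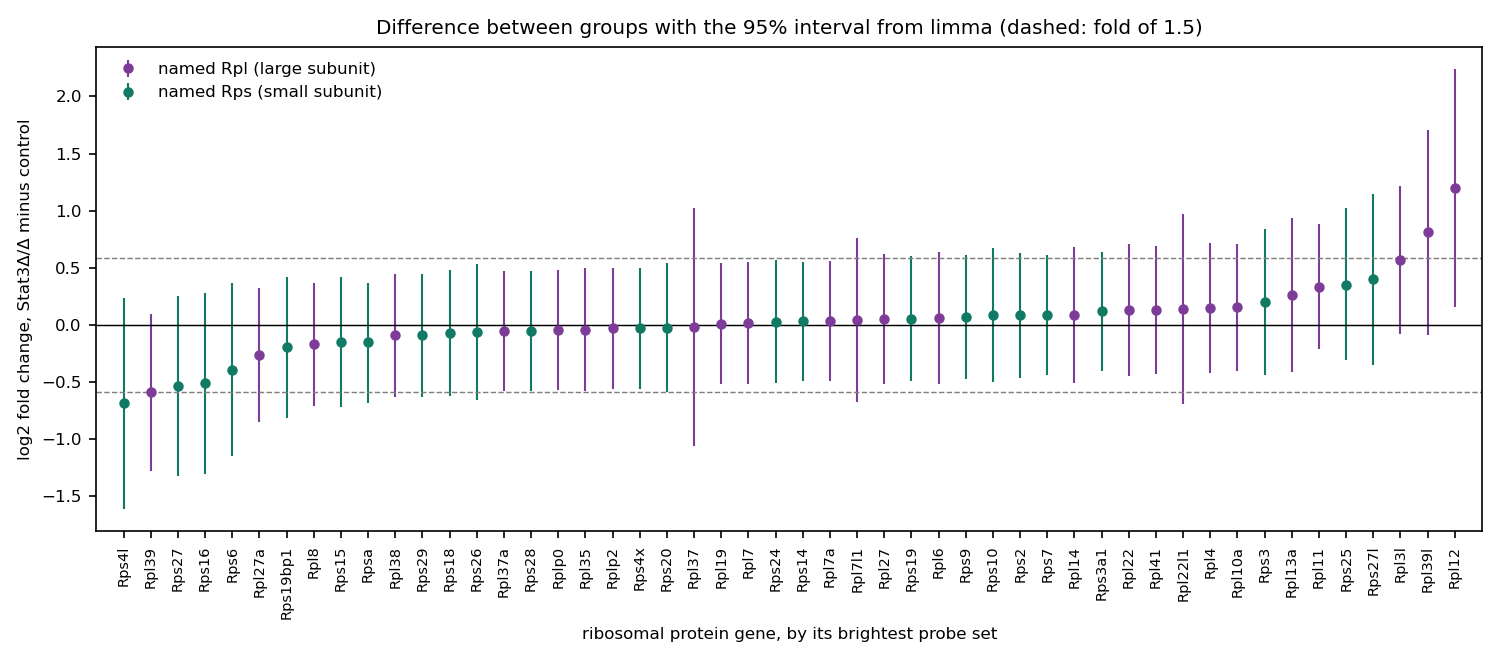
Log2 fold change (Stat3Δ/Δ minus control, vertical axis) of each of 50 ribosomal protein genes by its brightest probe set, ordered along the horizontal axis, with 95% intervals from limma as lines and a fold of 1.5 as dashed lines. Values run from -0.68 for Rps4l to 1.20 for Rpl12, and 37 of the 50 points lie within 0.25 of the zero line.

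The precision of these differences can be read from their intervals. The 95% interval of limma lay within a fold of 1.5 in both directions for 11 of 50 genes and within 1 log2 unit for 39, so in this fit a change of 1.5-fold is not excluded for the other 39. With a variance that follows the signal (limma with trend and robust), the median standard error of the ribosomal probe sets in the top 5% was 0.154 in place of 0.239, and 31 of 50 genes lay within a fold of 1.5. For Rplp0, a protein of the stalk that recruits translation factors and a common reference gene, the log2 signals were 16.52, 16.60 and 16.62 in Stat3Δ/Δ pools 1 to 3 and 16.64, 16.60 and 16.64 in control pools 1 to 3. The groups overlapped through control pool 2, and the log2 fold change was -0.047, with an interval of -0.57 to 0.48, or -0.34 to 0.25 with that variance. Rplp2, its partner in the stalk, gave 16.66, 16.86 and 16.74 against 16.79, 16.75 and 16.81, a log2 fold change of -0.03. The number of arrays, 3 in each group, limits the precision, and the standard error of the bright genes rests largely on the spread that limma borrows from all probe sets.

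Most ribosomal protein probe sets were among the brightest on the array. Of the 106, 67 (63.2%) were in the top 5% by mean signal and 18 (17%) were below the median of all probe sets. Their signals came to between 4.21% and 4.85% of all signal on an array, although they are 0.235% of its probe sets, and Stat3Δ/Δ pool 1 had the lowest share. Of the 50 genes, 36 lay in the top 5% by their brightest probe set. A signal depends on the probes as well as on the mRNA, so the order of the genes is one of signal and not of mRNA abundance. In bulk samples of this kind, fewer cells of a type and less RNA per cell cannot be told apart.

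**Figure D2:**
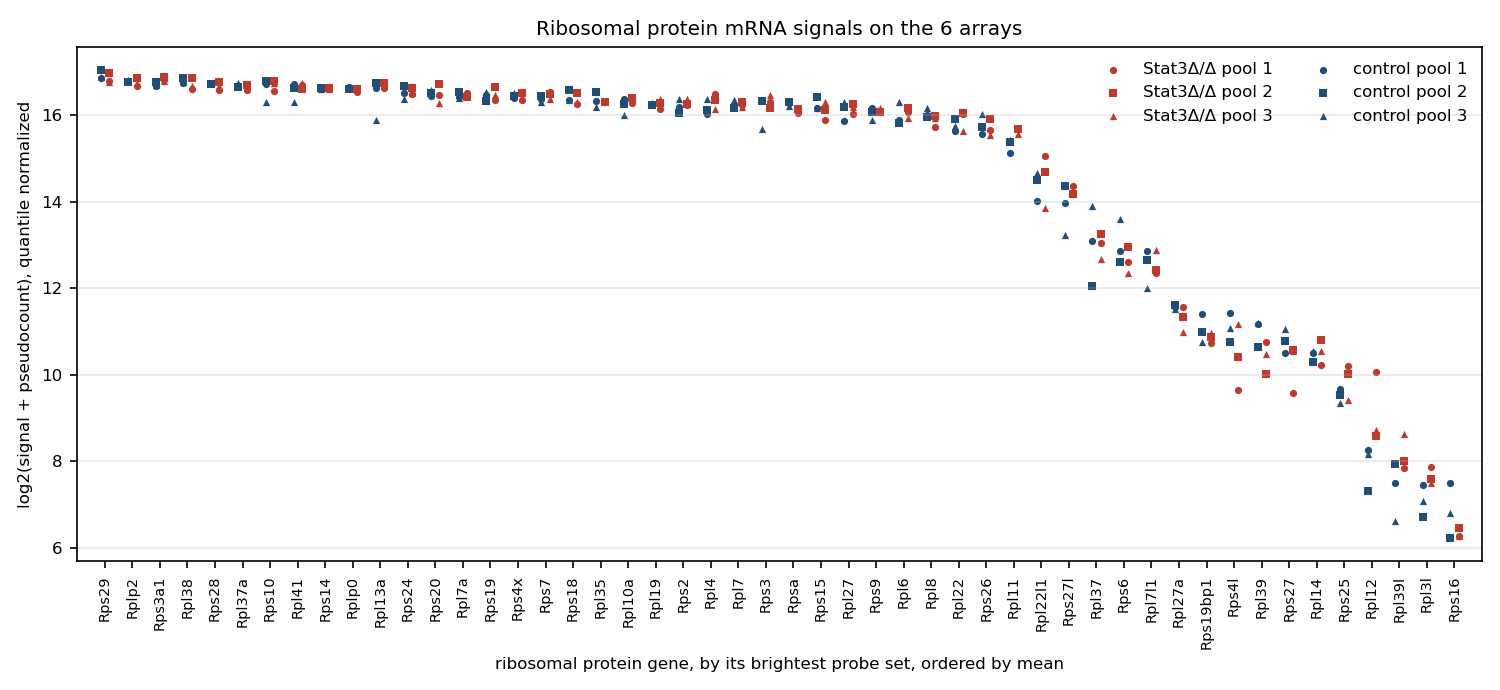
Log2(signal + pseudocount) on each of 6 arrays (vertical axis) for the brightest probe set of each of 50 ribosomal protein genes, ordered by mean along the horizontal axis; red marks are Stat3Δ/Δ pools, blue marks control pools, and the shape gives the pool number. The 36 genes in the top 5% have means between 14.05 and 16.88 and nearly coinciding marks, with wider scatter among the 14 others.

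The signals of the bright ribosomal protein genes differed little from pool to pool. They lie near the upper end of the arrays, and whether they follow the mRNA in proportion there was not tested. For the 36 genes the difference between the highest and the lowest of the 6 pools had a median of 0.33 on the log2 scale, and it was under 0.5 for 30 of them. After normalization Rps14, a protein of the platform of the small subunit, was the most even, with 16.65, 16.62 and 16.61 in Stat3Δ/Δ pools and 16.59, 16.62 and 16.59 in control pools, a range of 0.066. Rpl22l1, a paralog of Rpl22, was the least even, with 15.05, 14.69 and 13.86 against 14.01, 14.50 and 14.66, a range of 1.19. As deposited the median range was 0.44, with 28 of 36 under 0.5; Rps7 was then the most even, with a range of 0.089, and Rps14 had 0.24. The median standard deviation within a group was 0.136 for the ribosomal probe sets in the top 5% and 0.249 for all probe sets in the top 5%. The former lie higher within that range, at a median percentile of 99.7 against 97.5, and the part of signal strength in the smaller spread was not tested. Their median log2 fold changes were 0.029 and -0.021.

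Quantile normalization sets the same signal distribution on every array, and so bears directly on probe sets that fill its upper end. As deposited, the median log2 signal of the 50 genes was 15.96, 16.14 and 16.26 in Stat3Δ/Δ pools 1 to 3 and 16.26, 16.22 and 16.18 in control pools 1 to 3. After normalization these medians were 16.11, 16.21 and 16.19 against 16.16, 16.17 and 16.17. The upper end of the arrays was also lowest in Stat3Δ/Δ pools 1 and 2, with a 99.9th percentile of 90822, 93451 and 112341 signal units in Stat3Δ/Δ pools and 110581, 105347 and 109407 in control pools. Stat3Δ/Δ pools 1 and 2 thus stood lower than the other arrays before normalization, in ribosomal mRNAs as in the brightest signals generally.

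Among the 50 genes 4 had every Stat3Δ/Δ pool above every control pool, Rpl12, Rpl3l, Rpl11 and Rps3a1, which is 8% against 4.23% of all genes. One gene, Rpsa, had every Stat3Δ/Δ pool below every control pool, which is 2% against 10.2% of all genes. Over probe sets the numbers were 8 (7.55%, against 5.99%) and 2 (1.89%, against 7.66%). Rpsa, a small subunit protein also known as a laminin receptor, had 16.04, 16.14 and 16.13 against 16.27, 16.29 and 16.21, a log2 fold change of -0.15 (standard error, SE, 0.23, limma adjusted p = 0.898 over genes). Its second probe set, far dimmer, gave 0.18, with groups that overlapped. Rpl11, which binds the p53 regulator MDM2 when ribosome assembly is disturbed, had 15.67, 15.67 and 15.57 against 15.12, 15.37 and 15.42. Its log2 fold change of 0.33 (SE 0.24, limma adjusted p = 0.774 over genes) did not pass the test, and it was 0.22 as deposited, 0.078 with arrays centred on their medians and 0.26 within the 3 arrays whose titles share a leading number. Those arrays are control pool 3 with Stat3Δ/Δ pools 1 and 2; another number joins control pools 1 and 2, Stat3Δ/Δ pool 3 has one to itself, and no source used here gives its meaning. Rps3a1, a small subunit protein, had 16.81, 16.88 and 16.78 against 16.67, 16.75 and 16.69, a log2 fold change of 0.12. As deposited its groups overlapped, with signals of 103433.5, 108280.6 and 122967.2 against 110891.3, 110904.5 and 112904.3, while Rpl11, Rpl12, Rpl3l and Rpsa were separated there too. The numbers themselves depended on the scaling. As deposited, 4 genes had every Stat3Δ/Δ pool above every control pool and 4 had every one below. Rpl39l then joined those above, and Rpl38, Rps18 and Rps29 joined Rpsa below.

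All 4 probe sets with an unadjusted p of at most 0.05 had mean signals below the median of the array. The largest difference was that of probe set 1447563_at of Rps3, a small subunit protein at the mRNA entry site that also acts in DNA repair. Its log2 signals were 8.32, 8.25 and 8.58 in Stat3Δ/Δ pools and 7.12, 7.02 and 6.84 in control pools, with no overlap, a log2 fold change of 1.39 (SE 0.24, limma adjusted p = 0.412 over probe sets). In deposited units these are 288.6, 241 and 314 against 57, 54.1 and 45.2. The difference was 1.45 within the arrays that share a title number and from 1.30 to 1.47 when any 1 pool was left out. The brightest probe set of the same gene, 1435151_a_at, gave 16.31, 16.15 and 16.46 against 16.32, 16.33 and 15.68, with a log2 fold change of 0.20, and the third, 1455600_at, gave 0.11. Only the dimmest of the 3 probe sets thus separated the groups.

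Rps24, a small subunit protein, and Rpl35, a large subunit protein near the exit tunnel, showed the same kind of disagreement among 6 probe sets each. Probe set 1436500_at of Rps24 had 7.21, 7.64 and 7.14 against 8.97, 8.06 and 8.40, a log2 fold change of -1.15 (SE 0.31, limma adjusted p = 0.48), while the brightest gave 0.029 and the other 4 between -0.10 and 0.14. Probe set 1454833_at of Rpl35 had 8.35, 7.55 and 8.36 against 7.02, 6.54 and 7.41, a log2 fold change of 1.10 (SE 0.34, limma adjusted p = 0.507), while the other 5 lay between -0.13 and 0.02. Within the shared title number the values were -0.98 for the Rps24 probe set and 0.55 for the Rpl35 probe set. For Rps9, also of the small subunit, a dim probe set gave 0.95 and the brightest 0.069. These 4 genes had the widest range of log2 fold change between their probe sets, from 0.89 for Rps9 to 1.29 for Rps24. In each of them the dim probe set lay more than 8 log2 units below the brightest one, and what it hybridizes with was not analysed here.

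**Figure D3:**
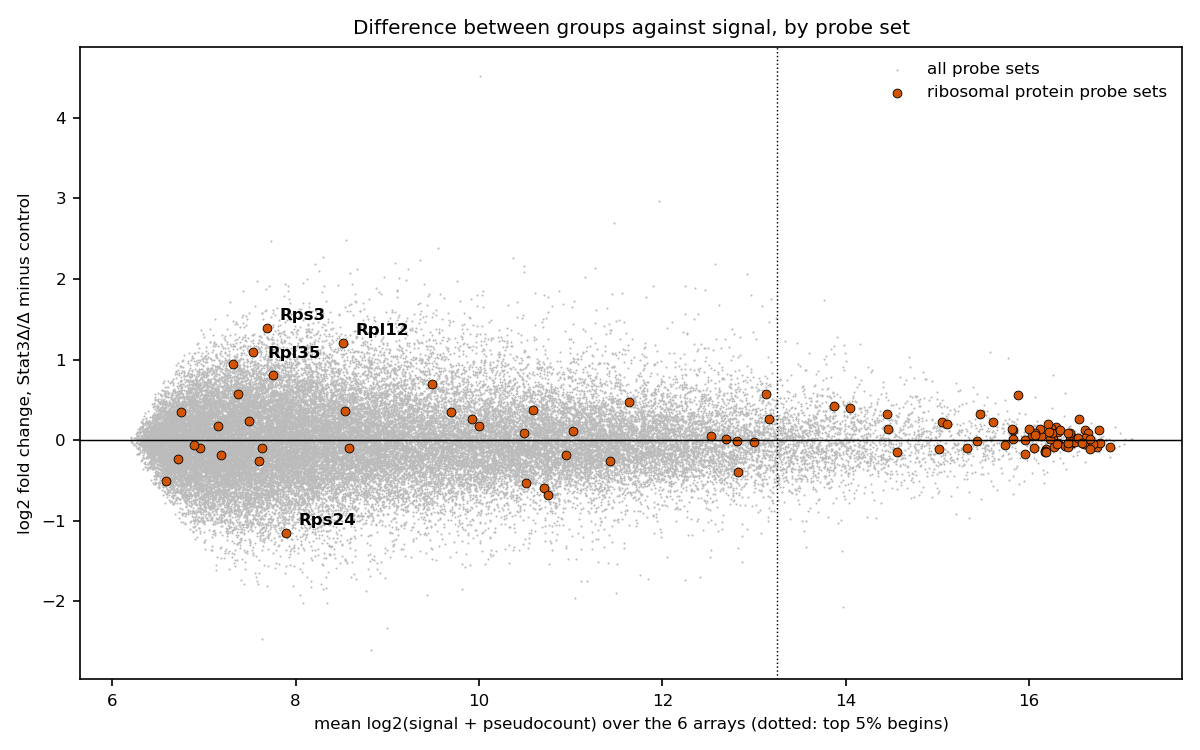
Log2 fold change (Stat3Δ/Δ minus control, vertical axis) against mean log2(signal + pseudocount) over 6 arrays (horizontal axis) for 45037 probe sets (grey) and 106 ribosomal protein probe sets (orange); the dotted line marks the start of the top 5%. The named points are the 4 probe sets with an unadjusted p of at most 0.05, all on the dim side, while the 67 to the right of the line lie between -0.17 and 0.56.

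The size of these dim differences depended on the pseudocount. With a pseudocount at the median signal the log2 fold changes were 0.61 for the Rps3 probe set, 0.46 for the Rpl35 probe set and -0.55 for the Rps24 probe set. With none they were 2.21, 1.94 and -1.67. Rpl12, a large subunit protein at the base of the stalk, was the only gene with an unadjusted p of at most 0.05 and has a single probe set, at the 49.2nd percentile of signal. It had 10.06, 8.58 and 8.72 in Stat3Δ/Δ pools and 8.27, 7.32 and 8.16 in control pools, a log2 fold change of 1.20 (SE 0.45, limma adjusted p = 0.583 over genes). The groups did not overlap, but pool 1 stood well above the other two Stat3Δ/Δ pools, and without it the log2 fold change was 0.73.

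Probe sets differed in other ways by rank and by type. For the 24 genes with several, the brightest had a median log2 fold change of 0.023 and the other 56 had 0.085. The same split over all genes gave -0.065 and 0.035. The 40 ribosomal probe sets whose identifiers end in _x_at, which can hybridize with related sequences, had a median of 0.014, against -0.105 for all such probe sets. A further 110 probe sets name a ribosomal protein gene together with other genes and were not counted as members. Their median was 0.015, and 2 of the 110 had an unadjusted p of at most 0.05, against 8.45% of all probe sets.

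The 8 genes with the highest log2 fold changes were Rpl12, Rpl39l, Rpl3l, Rps27l, Rps25, Rpl11, Rpl13a and Rps3, and none passed the FDR. Rps25, which some viral mRNAs need for initiation, had 10.20, 10.01 and 9.41 against 9.68, 9.54 and 9.34, a log2 fold change of 0.35. The value was 0.77 within the shared title number, which leaves out Stat3Δ/Δ pool 3, the lowest of its group. The 8 lowest were Rps4l, Rpl39, Rps27, Rps16, Rps6, Rpl27a, Rps19bp1 and Rpl8. Rps6, the small subunit protein that S6 kinases phosphorylate, had 12.61, 12.94 and 12.35 against 12.86, 12.60 and 13.60. Its groups overlapped, and its log2 fold change was -0.39 over all pools, -0.10 without control pool 3, the high one, and -0.83 within the shared title number, which holds that pool. Rpl8, a large subunit protein next to the peptidyl transferase centre, had 15.72, 15.97 and 15.93 against 16.01, 15.96 and 16.16, and a log2 fold change of -0.17. Rpl27a, of the large subunit, gave -0.26, and Rps19bp1 gave -0.19. Rps16, at the 3.7th percentile of signal, had deposited signals of 8.8, 17.5 and 8.1 against 93.6, 5.3 and 41.8, which are under the pseudocount on 5 of 6 arrays, and its -0.51 describes signals at the lower end of the array.

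Paralog pairs, in which a second gene encodes a close relative of a ribosomal protein, were set side by side. Rpl39, which lines the exit tunnel, had 10.76, 10.01 and 10.47 in Stat3Δ/Δ pools and 11.17, 10.63 and 11.20 in control pools, a log2 fold change of -0.59 (SE 0.30, limma adjusted p = 0.706 over genes). Its paralog Rpl39l, best known from the testis, had 7.85, 8.01 and 8.63 against 7.50, 7.95 and 6.62, a log2 fold change of 0.81 (SE 0.39, limma adjusted p = 0.686 over genes). After normalization the groups overlapped for both genes, in each case through control pool 2, while as deposited those of Rpl39l did not overlap. The value of Rpl39l was 0.35 with the pseudocount at the median signal, 1.38 with none and 0.44 without control pool 3, whose deposited signal of 28.8 is under the pseudocount. Rps27 had 9.58, 10.57 and 10.56 against 10.50, 10.78 and 11.05, a log2 fold change of -0.53 (SE 0.34, limma adjusted p = 0.76 over genes), and -0.21 without Stat3Δ/Δ pool 1. Its paralog Rps27l, a p53 target, gave 0.40 (SE 0.33, limma adjusted p = 0.804 over genes). In both pairs the point estimates had opposite signs, and none passed the test.

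The remaining pairs had values of like sign by their brightest probe sets, or a single measured member. Rps4x gave -0.029 and its mouse paralog Rps4l -0.68 (SE 0.40, limma adjusted p = 0.749 over genes), the latter with 9.65, 10.41 and 11.17 against 11.43, 10.76 and 11.08. Stat3Δ/Δ pool 1 was the lowest for Rps4l, and without it the log2 fold change was -0.30. Rpl22 gave 0.13 and Rpl22l1 0.14. Rpl7 gave 0.017 and Rpl7l1 0.047 by their brightest probe sets, and the other two of Rpl7l1 gave 0.47, with every Stat3Δ/Δ pool above every control pool, and 0.70. Rpl3l, the paralog of Rpl3 in striated muscle, had 7.87, 7.59 and 7.49 against 7.45, 6.71 and 7.08, a log2 fold change of 0.57 (SE 0.28, limma adjusted p = 0.697 over genes). Its groups did not overlap, and the lowest Stat3Δ/Δ pool exceeded the highest control pool by little. Its deposited control signals were 87.6, 31.9 and 67, near or under the pseudocount, and its value was 0.21 with the pseudocount at the median signal and 1.07 with none.

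Control pool 3 was the lowest array for every probe set of 4 of the 24 genes with several, Rpl13a, Rps27l, Rps3 and Rpl7l1, which were picked out after their values were seen. Stat3Δ/Δ pool 1 was the lowest for every probe set of 3 of the 24. No share over all genes with several probe sets is given, so these counts do not set the genes apart. The 4 probe sets of Rpl13a, a large subunit protein that also serves in an interferon-gamma-activated inhibitor of translation, lay from 0.78 to 1.05 lower in control pool 3 than the mean of control pools 1 and 2. The brightest had 16.62, 16.74 and 16.68 in Stat3Δ/Δ pools and 16.62, 16.74 and 15.88 in control pools. The log2 fold change of this probe set was 0.26 with all pools, -0.0032 without control pool 3 and 0.80 within the shared title number. The second brightest, 1417608_a_at, had 16.17, 16.07 and 16.24 against 15.94, 15.84 and 15.02, with no overlap, a log2 fold change of 0.56. In limma with trend and robust its unadjusted p was 0.0273 and its adjusted p 0.512 over probe sets. The other Rpl13a probe sets gave 0.32 and 0.57. For Rps27l the brightest probe set had 14.36, 14.17 and 14.21 against 13.97, 14.35 and 13.22, and its log2 fold change of 0.40 became 0.086 without control pool 3 and 1.05 within the shared title number. Rps3 likewise went from 0.20 to -0.0084 without that pool. Control pool 3 was the lowest of the 6 pools for 15 of 50 ribosomal genes (30%), against 16.7% of all genes, and Stat3Δ/Δ pool 1 was also the lowest for 15 (30%), against 26.4%. On the 5′ control probe set for 18S rRNA, control pool 3 had a log2 signal of 14.65 where the other arrays had 10.78 to 12.89, and the part of this in the low values was not tested.

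**Figure D4:**
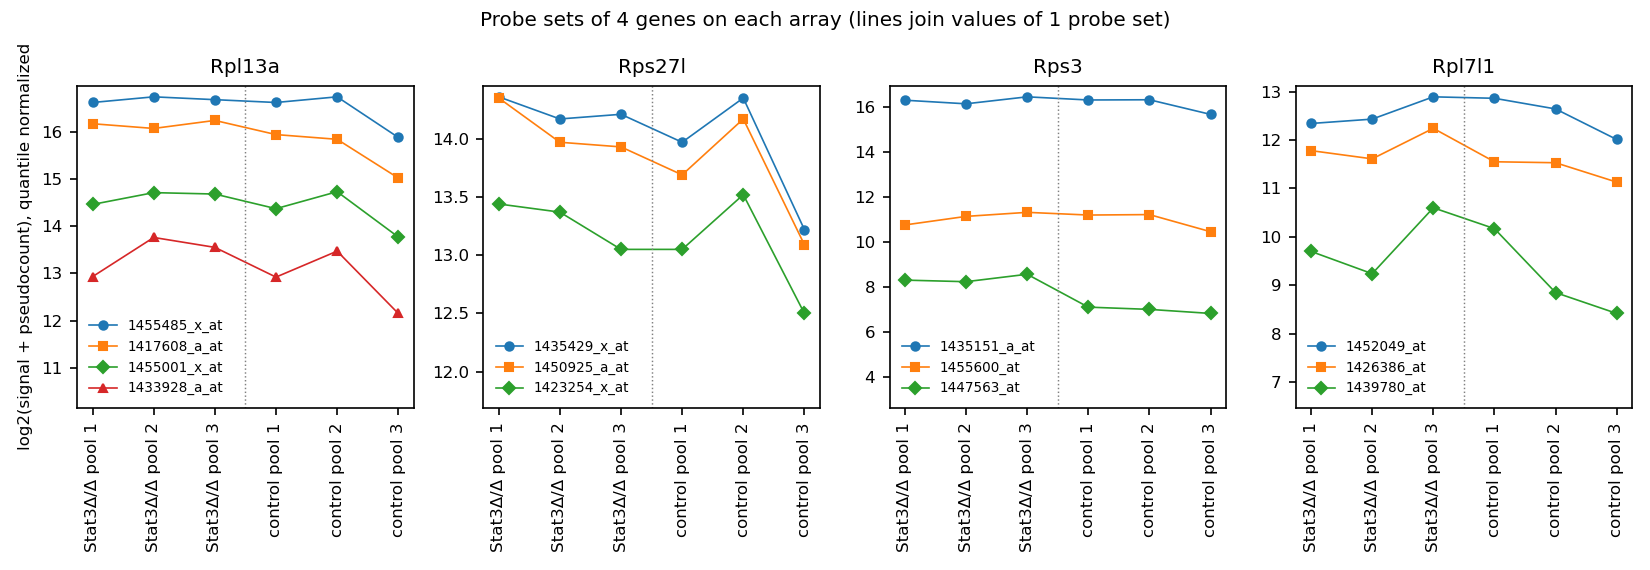
Log2(signal + pseudocount) of every probe set (vertical axis, its own range in each panel) of Rpl13a, Rps27l, Rps3 and Rpl7l1 on 6 arrays, with Stat3Δ/Δ pools to the left of the dotted line and control pools to the right. Each line is 1 probe set, and control pool 3 is the lowest point of all 13 lines; of the probe sets of Rps3, the dimmest also has low values in control pools 1 and 2.

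The start sites of these genes were searched for features that their names do not carry. RefSeq start sites (build GRCm38.p6) were matched by gene ID for 44 of the 50 genes, 52 starts in all; the unmatched genes were Rps14, Rpl7, Rps20, Rps29, Rpl8 and Rps4l. A TOP tract, taken as a C at the annotated start followed by at least 4 bases that are C or T, was found at 8 of 52 starts (15.4%), against 2.51% of 32851 starts of all genes. Within 10 bases of the start such a tract began at 28 (53.8%), against 30.7%. The 8 are shown as 30 bases on the strand of the gene, 15 of them before the start, because this tract is the best known feature that ribosomal protein genes share; capitals are the tract, and its first letter is the annotated start.
Rpl14, chr9:120571502-120571531, plus strand: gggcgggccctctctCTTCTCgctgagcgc
Rpl35, chr2:39005117-39005146, minus strand: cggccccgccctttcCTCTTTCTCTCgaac
Rpl38, chr11:114668565-114668594, plus strand: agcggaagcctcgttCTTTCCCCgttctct
Rplp2, chr7:141447636-141447665, plus strand: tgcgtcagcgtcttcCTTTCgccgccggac
Rps10, chr17:27635230-27635259, minus strand: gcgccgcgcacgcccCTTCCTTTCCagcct
Rps18, chr17:33955651-33955680, minus strand: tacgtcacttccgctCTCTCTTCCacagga
Rps27, chr3:90213634-90213663, minus strand: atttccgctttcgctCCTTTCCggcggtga
Rps6, chr4:86857353-86857382, minus strand: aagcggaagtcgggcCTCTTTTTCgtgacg
The tract lengths run from 5 bases in Rplp2 to 11 in Rpl35. By brightest probe set, the log2 fold changes of these genes were 0.085 for Rpl14, -0.041 for Rpl35, -0.089 for Rpl38, -0.03 for Rplp2, 0.084 for Rps10, -0.069 for Rps18, -0.53 for Rps27 and -0.39 for Rps6. By these probe sets, none of the 8 had an unadjusted p of at most 0.05.

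Other motifs were searched on both strands from 250 bases before to 50 bases after each start. CCGGAAG, letters recognised by ETS factors, was found at 21 of 52 starts (40.4%), against 8.86% of all starts, and TATAAA at 6 (11.5%), against 13.6%. TTCCNGGAA, letters that STAT factors recognise, was found at 1 (1.9%), against 1.15%. It lies in the promoter of Rpl35, beginning 126 bases before the start, and is shown with 10 bases on either side because STAT3 is the deleted factor; capitals mark the match. Together with the base before it, the match also holds the reverse complement of CCGGAAG.
Rpl35, chr2:39005239-39005267, minus strand: aaggcaggacTTCCGGGAAgcggagggca
The 5 bright probe sets of Rpl35 had log2 fold changes between -0.13 and 0.02, and binding of a factor to these letters was not measured.

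Of other genes of translation, none was called. Initiation factors had a median log2 fold change of -0.043 over 30 measured genes, of which 2 (6.67%) reached an unadjusted p of 0.05 or less, both higher, against 7.81% of all genes. These were Eif4a2, an RNA helicase, at 0.76 (SE 0.29, limma adjusted p = 0.589 over genes), and Eif4e, which binds the mRNA cap, at 0.63 (SE 0.23, limma adjusted p = 0.579 over genes). Eif4e had 13.72, 13.55 and 13.42 in Stat3Δ/Δ pools and 12.90, 12.99 and 12.91 in control pools, with no overlap. Elongation and termination factors had a median of 0.014 over 10 genes. Eef1a1, which delivers aminoacyl-tRNA to the ribosome, gave 0.016 and Eef2 -0.13, while Eef2k, the kinase that inhibits EEF2, gave -0.74 (SE 0.30, limma adjusted p = 0.62 over genes), with every Stat3Δ/Δ pool below every control pool.

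Other mRNAs with a TOP tract had a median of 0.075 over 17 genes, 12 of them above 0, and 0 of 17 had an unadjusted p of at most 0.05. Fau, which encodes a small subunit protein under another name, gave -0.032. Ribosome assembly factors had a median of -0.02 over 49 genes, 0 of them with an unadjusted p of at most 0.05. The list of 17 measured genes for mTOR and S6 kinase signalling had a median of -0.10. Myc, a transcription factor that drives ribosome production, was kept on this list though it is neither an mTOR component nor an S6 kinase. It was the highest of the list, at 0.69 (SE 0.26, limma adjusted p = 0.579 over genes). Its log2 signals were 13.56, 13.35 and 13.58 in Stat3Δ/Δ pools and 12.56, 12.79 and 13.08 in control pools, with no overlap. Mitochondrial ribosomal proteins, which serve the separate ribosome of that organelle, had a median of -0.12 over 76 genes, with 26 above 0, and 1 of them reached an unadjusted p of 0.05 or less. With arrays centred on their medians every one of these groups lay below 0, at -0.25 for initiation factors, -0.23 for elongation and termination factors, -0.14 for other TOP mRNAs, -0.16 for assembly factors, -0.25 for mTOR and S6 kinase signalling and -0.26 for mitochondrial ribosomal proteins. As deposited the medians were -0.087 for the cytosolic and -0.11 for the mitochondrial genes, so the distance between the families narrowed; it was not tested.

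**Figure D5:**
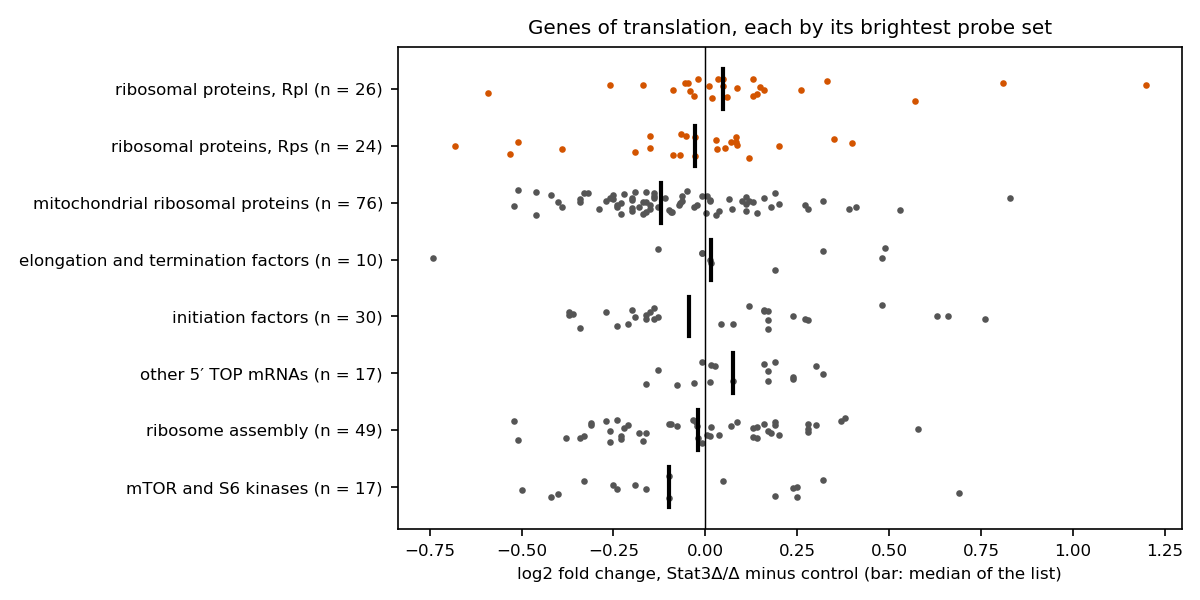
Log2 fold change (Stat3Δ/Δ minus control, horizontal axis) of each measured gene of 8 groups of translation genes, each by its brightest probe set; points are genes, spread vertically for visibility, and the bar is the median of the group. Medians lie between -0.12 for mitochondrial ribosomal proteins and 0.075 for other TOP mRNAs.

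Ribosomal protein mRNAs are made by all cells of the isolate, so markers of other cells and of RNA integrity are given beside them. Of 10 alveolar macrophage markers 9 were measured, none at 0, all 9 with a log2 fold change above 0 and a median of 0.54; their summed signal was 123000 to 174000 in Stat3Δ/Δ pools and 97200 to 107000 in control pools. Of 8 fibroblast markers 7 were below 0, with a median of -1.45, or -0.44 within the shared title number, and sums of 5480 to 11100 against 16500 to 33200. Of 8 ciliated cell markers 6 were below 0, with a median of -1.04, or -0.69 within the shared title number, and sums of 26300 to 39500 against 35000 to 70400. Of 5 airway secretory markers 4 were below 0, with a median of -0.22 and Muc5b lowest at -1.12. Endothelial markers had a median of -0.27 over 6 genes and lymphocyte markers 0.017 over 9. Type II cell markers had a median of -0.046, with Abca3 lowest at -0.73. As a measure of RNA integrity, log2 signals of control probe sets at the 3′ end minus those at the 5′ end were 0.39 ± 0.046 (SD, n = 3) against 0.641 ± 0.17 (SD, n = 3) for Actb and -0.41 ± 0.099 (SD, n = 3) against 0.02 ± 0.26 (SD, n = 3) for Gapdh. For each, an exact permutation test (two-sided) gave p = 0.1, and 3 arrays against 3 cannot give less. The part of other cells and of RNA integrity in the ribosomal values was not tested.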

How the data were processed

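Signal intensities were deposited by the authors, who made them with Affymetrix Microarray Suite 5.0 (MAS5 in the submitters' processing notes); the 2% trimmed mean is 1500 on every array. The RMA values of the study were not used here. Of 45101 probe sets, 64 controls were left out and 45037 tested. The pseudocount of 69.9 was added, log2 taken and arrays quantile normalized, and a model with group as its term was fitted in limma 3.58.1 (R 4.3.3), with Benjamini-Hochberg adjustment over all probe sets, or over 18193 genes by their brightest probe set. Of the probe sets 34945 name 1 gene, 932 several and 9160 none. limma p-values set the difference between groups against the spread between pools of 3 mice, combined with the spread borrowed from all probe sets. The members, gene lists and tests were chosen with earlier results of these data known. Genes named were any called member, the 8 highest and 8 lowest, Rpl5, Rps6, stalk proteins, Rpsa, Rps27a, paralog pairs and the 4 with the widest probe set differences; others were named for their start sequence, by list or after their values were seen. The calls were tested on simulated data. Pool numbers in the titles were treated as names. Deviations of same-numbered pools correlated at -0.084, -0.009 and -0.235, which with so few pools cannot settle whether they are pairs. Alternatives changed the pseudocount, normalization, low-signal filter, variance model, array weights, blocks, probe set choice, test and pools. Start sequences came from RefSeq. Python 3.11.15, pandas 2.3.3, numpy 2.4.6 and matplotlib 3.10.9 made tables and plots.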

Additional observations from a re-analysis of the deposited data

How the results depend on the processing

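No ribosomal protein probe set was called under any alternative that kept the FDR, and with 1 pool left out the number called was 0 to 0. Without the FDR, 4 of 106 passed the p and the fold in limma. The methods' t-test at the same p and fold gave 3, against 2216 of all 45037 probe sets. Ribosomal probe sets with an unadjusted p of at most 0.05 numbered 3 higher (2.83%, against 4.18% of all probe sets) and 1 lower (0.943%, against 4.27%). For the alternatives below no share over all probe sets is given. The higher ones numbered 6 with no normalization between arrays, 5 with array weights, 6 with a fixed block for the number that leads the titles, and, in alternatives chosen after seeing the data, 5 with this block taken as random (correlation 0.16) and 5 without the third pool of each group; leaving out 1 pool gave 2 to 6. The lower ones numbered 2 with the pseudocount at the median signal, 2 with arrays centred on their medians, 0 with the fixed block and 2 without the third pools; leaving out 1 pool gave 1 to 2. With a filter on low signal, which removed those probe sets, both numbered 0. The median log2 fold change of 0.03 was -0.087 with no normalization and -0.23 with centred arrays, and leaving out 1 pool gave -0.016 (without Stat3Δ/Δ pool 2) to 0.037. No source used here says whether the pool numbers pair the samples. With them as a replicate block the numbers were 4 higher and 1 lower, the median 0.03 and the number called 0. What caused these shifts was not tested.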
